A study of Orestias ascotanensis with 42 samples.

Results

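Orestias ascotanensis is a small killifish that lives at 3740 m in springs of the Ascotán salt pan, northern Chile, and its skin was compared here between summer and winter. The comparison used 14 of the 42 libraries of the series: 7 from fish caught in winter 2019 and 7 from fish caught in summer 2020. Season was taken from the library title, which names the tissue, the season and the individual. The fish were wild and untreated, and each gave 1 skin library besides 1 of gills and 1 of muscle, so that the 14 skin libraries came from 14 fish. Summer 7 carries a treatment tag that names winter, against its title, and its values are therefore also given separately. Winter fish all came from 1 year and summer fish from the next, so season, year and collection cannot be told apart. The deposited table holds raw counts for 21024 genes under identifiers that the files do not pair with gene names.

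Fish skin is a living, mucus-covered barrier between the body and the water. Its epidermis holds keratinocytes, mucous cells and ion-transporting cells, and the dermis below carries scales, pigment cells and collagen-producing fibroblasts. A piece of skin cut from a small fish can also hold blood, fat and some of the muscle that lies under it, so that a bulk skin library is a mixture of cell types. In such a mixture, fewer cells of a type and less RNA per cell cannot be told apart.

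Skin totals ran from 31616447 counts in summer 4 to 119309580 in winter 1. The seasonal difference in totals was within the spread between libraries (two-sided exact permutation test, p = 0.168, n = 7 and 7). Of the 21024 genes, 305 had no count in any skin library. At this depth each gene named below had a count of at least 578 in every skin library.

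The skin libraries were first checked against their tissue. Log2 CPM is each count set relative to the TMM-scaled total of its library, on a log2 scale with a prior count of 2. In 12 of the 14 libraries it correlated at r = 0.971 to 0.991 with the mean of the other skin libraries. Summer 3 and summer 4 were left out of every such mean, and they reached 0.902 and 0.884 with the mean of the 12. Both were closer to skin than to the other tissues: summer 3 had r = 0.740 with gills and 0.840 with muscle, and summer 4 had 0.772 and 0.748. In the other skin libraries, r with gills went from 0.823 to 0.887 and r with muscle from 0.844 to 0.876. These correlations are across genes within a library, and genes are not independent replicates.

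Summer 3 and summer 4 stood apart in several measures. Summer 3 had the highest share of counts in its 10 most abundant genes, 28.1%, against 11.7% to 20.4% in the other skin libraries. Its TMM scaling factor was 0.580, and a factor below 1 raises every CPM of a library over the plain ratio to its total. Summer 4 had the smallest total and the most genes at 0, 10.2%, followed by summer 3 with 9.51%. In the other libraries 4.90% to 7.63% of genes were at 0. The gills of the same fish did not stand apart: their libraries had a median r of 0.972 and 0.976 with other gill libraries, where the 14 ran from 0.968 to 0.984. In muscle, the library of the fish numbered summer 4 had the lowest median r, 0.790, and that of summer 3 had 0.948. The comparisons below are given with and without these libraries.

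Principal component analysis of the 14 libraries put 50.6% of the variance on a first component, on which summer 3 scored 143, summer 4 scored 172 and the remaining 12 libraries scored from -42.5 to -14.5. The second component held 18.5% of the variance and placed winter 1, 4 and 5 at 47.8 to 52.7 and winter 2, 3, 6 and 7 at -50.3 to -26.3. Summer libraries without 3 and 4 lay between and beside them, from -42.8 to 34.3. The seasonal difference passed on neither component (two-sided exact permutation tests of 7 against 7 libraries, p = 0.335 and 0.904).

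**Figure D1:**
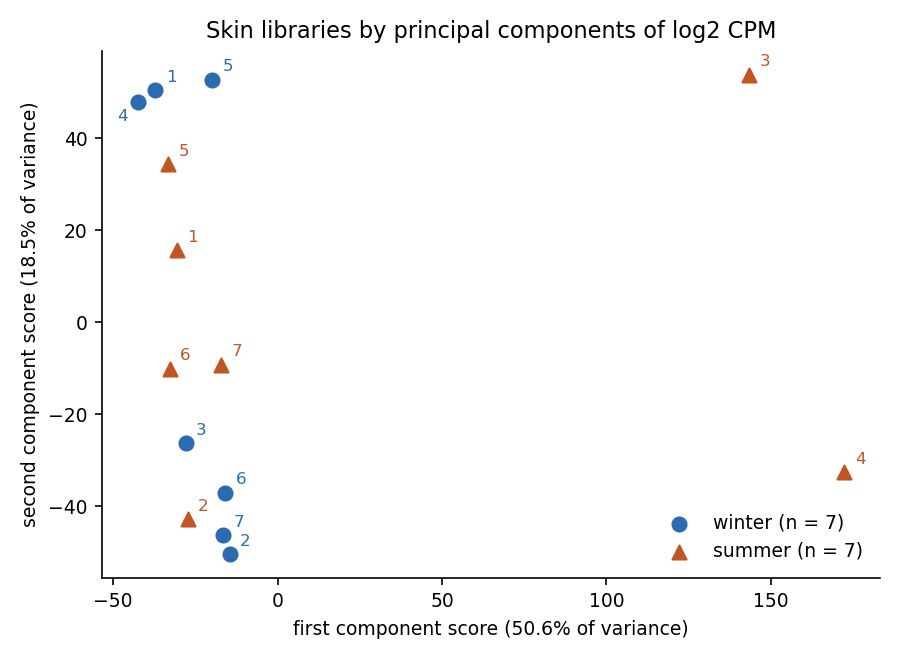
Scores of the 14 skin libraries on the first (x, 50.6% of variance) and second (y, 18.5%) principal component of log2 CPM, with circles for winter, triangles for summer and the individual number beside each point. Summer 3 and 4 sit at 143 and 172 on the first component, away from the other 12 libraries, and on the second component winter and summer libraries overlap.

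The distance between libraries was measured as the MAD (median absolute deviation) of the log2 count ratio taken over genes whose counts in both libraries of a pair summed to 1000 or more. The 14 pairs that set summer 3 or 4 against a winter library lay at 1.44 to 1.79, while summer 3 and 4 were 0.727 apart from each other. The 21 winter pairs ran from 0.111 to 0.607, with a median of 0.466. Without summer 3 and 4, the 10 summer pairs ran from 0.197 to 0.344, with a median of 0.252. The 3 closest winter pairs, among winter 2, 6 and 7, had MADs of 0.111, 0.130 and 0.144. Scatter was also set against sampling noise, over 2299 to 3422 genes a pair. In these 3 pairs it was 1.25 to 1.32 times that of sampling noise, against 1.44 to 3.13 times in other pairs of the same season. Pairs between seasons ran from 1.24 to 2.86 times, with winter 7 and summer 2 at 1.24. In MAD that pair lay at 0.202, the smallest between seasons, and 0 pairs between seasons were under 0.15. The measures differ on how unusual winter 2, 6 and 7 are, and neither settles it. Winter 2, 6 and 7 were kept as separate samples and also averaged as an alternative.

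With all 14 libraries, mean distance within summer exceeded that within winter by 0.492, and the difference did not pass (two-sided exact permutation test, p = 0.443, n = 7 and 7). Summer 3 and 4 are left out in the repeat because they correlate least with the other skin libraries, so leaving them out lowers the summer spread by its own construction, and the spread of the remaining libraries is given as a description, with no test. Mean distance was then 0.263 within summer (n = 5) and 0.407 within winter (n = 7), a difference of -0.144. The median SD of log2 CPM per gene was 0.643 in summer and 0.331 in winter over all libraries, and 0.210 and 0.335 in the repeat.

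Mean distance between seasons exceeded that within seasons by 0.0556 with 14 libraries and by 0.0117 with 12, and neither excess passed (one-sided exact permutation tests, p = 0.122 with n = 7 and 7 and 0.250 with n = 5 and 7). By MAD, the closest library was one of the same season for 11 of 14 libraries. These 11 include summer 3 and 4, which were closest to each other, and the close winter 2, 6 and 7. Winter 1, 4 and 5 were the exceptions, with summer 1 as the closest library at MADs of 0.286, 0.276 and 0.289. By correlation of log2 CPM, winter 3 was also closest to summer 2 (r = 0.978), summer 2 to winter 7 (0.991) and summer 7 to winter 6 (0.985). The count therefore depends on the measure.

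What the winter libraries differed in was described through genes of the neighbouring tissues. From gills and muscle libraries alone, 3063 genes were at least 4-fold higher in muscle than in gills and 2660 at least 4-fold higher in gills than in muscle (quasi-likelihood test of edgeR, adjusted p below 0.05). A further 224 genes were at least 4-fold higher in skin than in both other tissues, averaged over the seasons. These groups stand in for cell type markers, which could not be matched without gene names, and being higher in a tissue does not make a gene specific to 1 cell type.

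Muscle-over-gill genes took 27.9% to 43.5% of the counts in winter skin, with winter 3 the lowest and winter 5 the highest. In summer skin they took 29.5% in summer 4, 30.5% in summer 2, 35.4% in summer 6, 37.96% in summer 1, 40.3% in summer 7, 44.1% in summer 5 and 55.5% in summer 3. The seasons overlapped, with means of 34.5% ± 6.49 in winter and 39.03% ± 8.92 in summer (SD, n = 7 each; two-sided exact permutation test, p = 0.315, 0.635 after adjustment over the 3 groups). Gill-over-muscle genes took 8.86% to 17.1% of the counts in winter and 6.14% to 18.1% in summer, where summer 3 had the lowest and summer 4 the highest share of all 14. Their means were 13.9% ± 3.73 and 12.9% ± 4.05 (SD, n = 7 each; exact permutation p = 0.635, also 0.635 adjusted). Skin-enriched genes took 2.30% ± 0.350 in winter and 2.48% ± 0.487 in summer (SD, n = 7 each; exact permutation p = 0.457, adjusted 0.635). In the 12 libraries without summer 3 and 4 the smallest of the 3 exact permutation p-values was 0.395 (n = 5 and 7).

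The second component followed the gill-over-muscle share. Across the 14 libraries Pearson's r was -0.938 (permutation p = 1e-05, the smallest that 100000 resamples give, 0.00015 adjusted over 15 relations) and Spearman's rho -0.908 (permutation p = 2e-05, 0.0003 adjusted). After leaving out summer 3 and 4, the libraries farthest from the median share, r was -0.955. Within winter it was -0.960 and within summer -0.966, each over 7 libraries. With the muscle-over-gill share r was 0.839 (permutation p = 0.00017, adjusted 0.00085) and rho 0.820 (permutation p = 0.00061, adjusted 0.00305), and r was 0.901 within winter and 0.930 within summer. Component and share come from the same counts and are not separate measurements. The first component, which sets summer 3 and 4 apart, had r = 0.215 with the muscle-over-gill share, -0.029 with the gill-over-muscle share and 0.318 with the skin-enriched share (permutation p = 0.455, 0.920 and 0.270, adjusted 0.854, 0.920 and 0.579). Without the 2 libraries farthest from the median of each share, these r were -0.340, 0.565 and -0.464, against the sign of the pooled values. Within winter they were -0.511, 0.649 and 0.383, and within summer 0.189, -0.040 and 0.286.

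**Figure D2:**
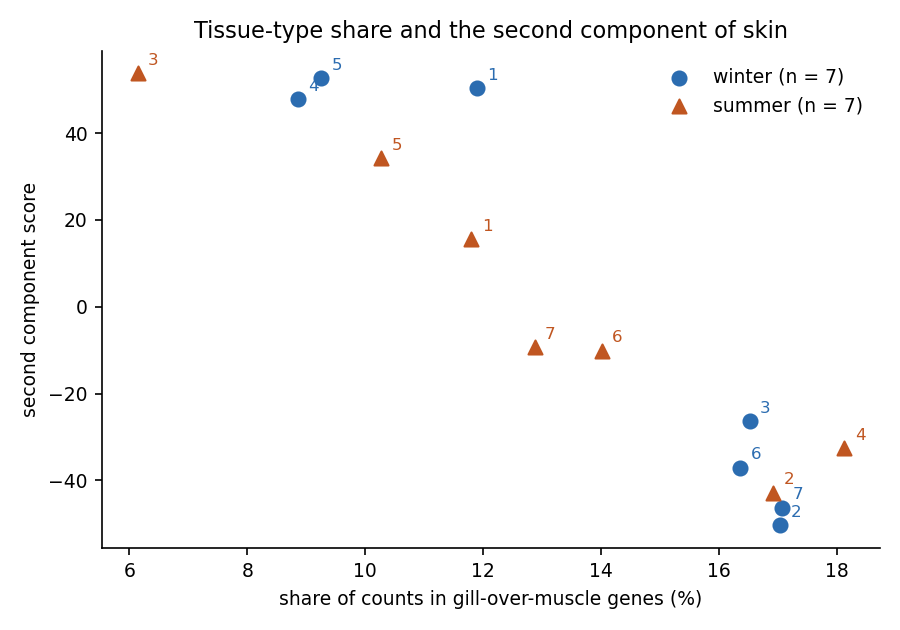
Share of counts in gill-over-muscle genes (x, percent) against the score on the second principal component (y) in the 14 skin libraries, with circles for winter and triangles for summer. Winter 4, 5 and 1 lie at shares of 8.86% to 11.9% with scores of 47.8 to 52.7, winter 2, 3, 6 and 7 at 16.4% to 17.1% with scores of -50.3 to -26.3, and the summer libraries run along the same line.

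The question put to the whole table was which genes differed between summer and winter skin. Of 18260 genes that passed the filter on low counts, edgeR's quasi-likelihood test called 0 (0% of the genes tested) at the adjusted threshold of 0.05. At an unadjusted p under 0.05 there were 2064 genes, 11.3% of those tested, with 1682 (9.21%) higher and 382 (2.09%) lower in summer. On the same libraries the lean was also seen with DESeq2, 2244 higher and 590 lower, and with RLE scaling, 1840 and 369. It was smaller in voom, with 737 and 560, and absent in voom with quality weights, with 3319 and 3315. DESeq2 called 78 genes at the same adjusted threshold, 76 of them higher in summer, of which 70 peaked in summer 3 and 3 in summer 4. A fit over all libraries called 287 higher and 2 lower, and 195 and 57 of the higher genes peaked in summer 3 and 4. Limma voom called 0. Voom with quality weights called 3546, and 594 and 59 of its 1805 higher genes peaked in these libraries. Those weights were 0.0753 and 0.0635 for summer 3 and 4, 4.39, 6.20 and 4.42 for the close winter libraries 2, 6 and 7, and 0.327 to 0.722 for the other 4 winter libraries. At least 2-fold differences were fitted for 653 genes (3.58%) higher and 76 (0.416%) lower in summer, and the 7 summer levels did not overlap the 7 winter levels for 85 genes (0.465%) higher and 61 (0.334%) lower.

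Summer 3 and 4 held the extreme levels of most of these genes. Among the 1682 genes higher at an unadjusted p under 0.05, the highest of the 14 libraries was summer 3 for 1190 genes (70.7%) and summer 4 for 408 (24.3%). Over all genes tested, each of these libraries was the highest for 21.3%. Among the 382 lower genes, the lowest library was summer 3 for 265 (69.4%) and summer 4 for 79 (20.7%), against 17.05% and 28.02% of all genes tested. Genes picked by direction seldom have that extreme in a winter library, and each winter library was the highest for 0 of the 1682. Over all genes winter libraries can hold the extreme, so the percentages are not like for like. When summer 3 alone was left out there were 1028 genes at an unadjusted p under 0.05, and with any other single library left out there were between 1524 and 2817, where 1524 belongs to summer 4 and 2817 to summer 1.

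**Figure D3:**
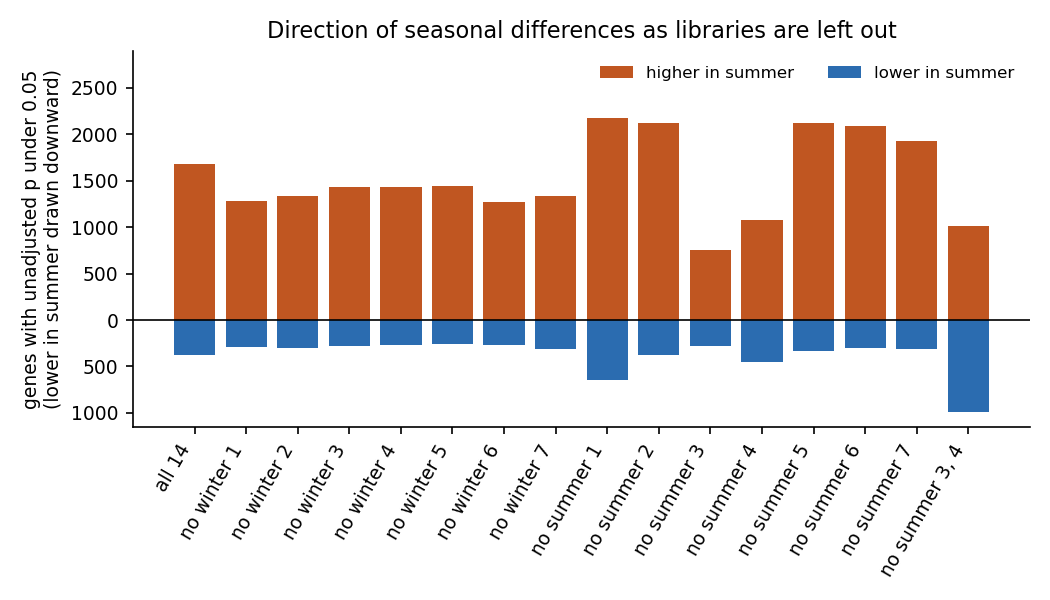
Number of genes with an unadjusted p under 0.05 (y, genes higher in summer upward, lower downward) with all 14 skin libraries, with each library left out in turn, and without summer 3 and 4. With all libraries 1682 genes were higher and 382 lower, and without summer 3 and 4 the bars were nearly equal at 1011 and 995.

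In the 12 libraries left after removing summer 3 and 4, 2 of 18486 genes passed the adjusted threshold (0.0108%), both higher in summer, and 0 were lower. Summer 3 and 4 were left out for their distance from the other libraries, which also lowers the spread this test uses. At an unadjusted p under 0.05 there were 2006 genes (10.9%), now evenly split into 1011 higher (5.47%) and 995 lower (5.38%). DESeq2 called 478 genes and voom with quality weights 3672. Levels of the 5 summer and 7 winter libraries did not overlap for 194 genes (1.05%) higher and 144 (0.779%) lower, and at least 2-fold differences were fitted for 117 (0.633%) and 81 (0.438%). The fits share the winter libraries and 5 of the summer libraries. The 1682 genes higher at an unadjusted p under 0.05 in the 14 libraries had a median log2 fold change of 0.85 there and 0.21 without summer 3 and 4, and the 382 lower genes had -0.44 and -0.30.

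Fitted fold changes were small in both forms. Over all genes tested the log2 fold change had a median of 0.00 and an interquartile range of -0.24 to 0.36 with 14 libraries, and a median of -0.03 and a range of -0.17 to 0.13 without summer 3 and 4. The direction varied with abundance. In the 12 libraries, the 4621 least abundant genes had 172 higher and 73 lower at an unadjusted p under 0.05, and the 4622 most abundant had 264 higher and 479 lower. In the 14 libraries these were 319 and 41 among the 4565 least abundant genes and 509 and 182 among the 4565 most abundant.

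**Figure D4:**
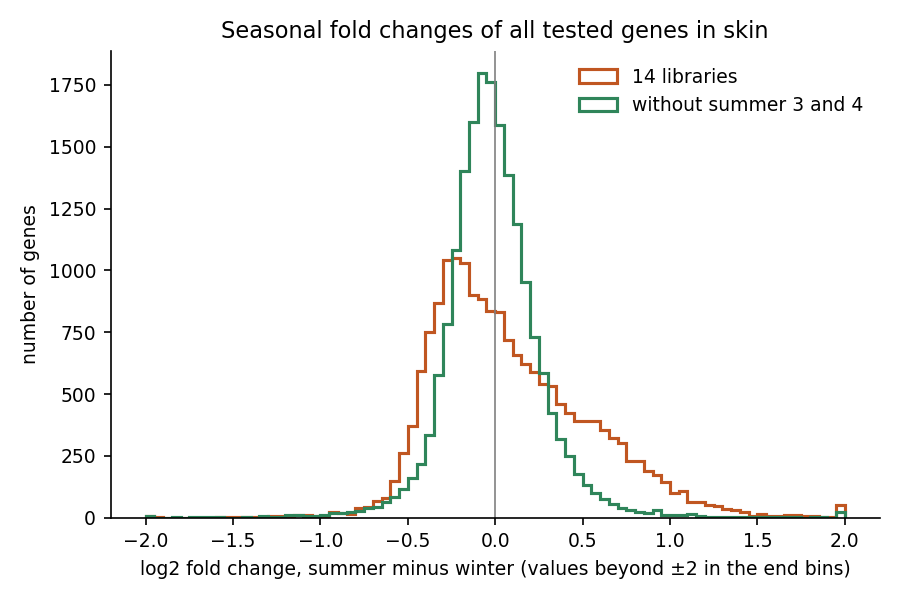
Histogram of the log2 fold change, summer minus winter (x, values beyond 2 in either direction put in the end bins), over all genes tested in skin (y, number of genes), with 14 libraries and without summer 3 and 4. The 14-library curve has an interquartile range of -0.24 to 0.36 with a long shoulder on the higher side, and the curve without summer 3 and 4 is narrow, with a range of -0.17 to 0.13.

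The tissue-related gene groups moved with the same libraries. In the 14 libraries, 2784 of the 3063 muscle-over-gill genes were tested, and 422 (15.2%) were higher and 28 lower at an unadjusted p under 0.05, with a median log2 fold change of 0.17, where all genes tested had 9.21% higher and a median of 0.00. Of the 2660 gill-over-muscle genes 2402 were tested, with 136 (5.66%) higher, 35 lower and a median of 0.05. Among skin-enriched genes 222 of 224 were tested, with 53 (23.9%) higher, 0 lower and a median of 0.36. Unlike the other groups, this one was chosen on levels that include summer 3 and 4, so its lean in the 14 libraries is not independent of that choice. These leanings were smaller in the 12 libraries. Muscle-over-gill genes then had 158 of 2833 (5.58%) higher and 68 lower, gill-over-muscle genes 98 of 2442 (4.01%) and 80, and skin-enriched genes 14 of 224 (6.25%) and 8, against 5.47% and 5.38% of all genes. No member of the 3 groups passed the adjusted threshold of edgeR's test in either form.

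The 25 genes with the smallest p in each direction, among those whose mean log2 CPM reached 1, showed the same contrast. In the 14 libraries the 25 higher genes had log2 fold changes of 0.65 to 4.397 and edgeR adjusted p-values of 0.331 to 0.438, and 20 of them peaked in summer 3. The 25 lower genes had -0.67 to -0.37, and 18 were lowest in summer 3. Leaving out summer 3 and 4, the 25 higher genes had log2 fold changes of 0.41 to 1.20, adjusted p-values of 3.83e-05 to 0.0689, and summer levels above all winter levels in each. The 25 lower genes had -0.79 to -0.30 and adjusted p-values of 0.0689 to 0.118, with 21 not overlapping. A choice by smallest p favours genes that do not overlap. The shares and numbers over all genes tested given here also include genes below the log2 CPM limit of 1. They are therefore not like for like with the 25. Over all genes of the 12 libraries 1.05% higher and 0.779% lower did not overlap. In the 14 libraries 17 of the 25 higher and 10 of the 25 lower genes did not, against 0.465% and 0.334% of all genes. Muscle-over-gill genes made up 2833 and gill-over-muscle genes 2442 of the 18486 genes tested in the 12 libraries. They numbered 10 and 1 among the 25 higher and 1 and 3 among the 25 lower genes there, and 8 and 4 among the 25 higher and 2 and 2 among the 25 lower genes in the 14 libraries.

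OAV3G000020083 had the smallest p in both forms, with winter levels close to each other. In winter skin it measured 9.38, 8.85, 8.94, 9.42, 9.997, 9.92 and 10.7 CPM (TMM-scaled) in individuals 1 to 7. In summer skin it measured 19.1, 22.6, 89.9, 45.9, 22.7, 23.8 and 21.9 CPM. Every summer library was above every winter library, summer 3 and 4 were the highest, and the other 5 summer libraries lay within 19.1 to 23.8 CPM. The means were 35.1 ± 25.8 CPM in summer and 9.60 ± 0.639 in winter (SD, n = 7 each). The log2 fold change was 1.87 ± 0.33 (SE) in the 14 libraries, where edgeR's adjusted p was 0.331. Once summer 3 and 4 were left out OAV3G000020083 rose by 1.20 ± 0.08 (SE) on the log2 scale with an adjusted p of 3.83e-05 in edgeR's test, from 10.1 ± 0.662 CPM in 7 winter libraries to 23.2 ± 1.96 in 5 summer libraries (SD). That call held in 24 of 25 alternatives and was lost when summer 7 was counted as winter (log2 fold change 0.99, adjusted p = 0.648 in edgeR). The 25 alternatives, here and for the genes below, are not independent. Of them 12 leave out a single library, and the fit without summer 7 is counted again as the one without the library of differing tag. Summer 7, at 21.9 CPM, lay within the range of the other summer libraries. The gene was chosen with summer 7 counted as summer, so this level does not settle the season of that library.

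OAV3G000005417 was the other gene that rose without summer 3 and 4. In winter skin it ran from 363.9 to 462.6 CPM, with a median of 428.7. In summer skin it measured 611, 774, 2467, 1432, 804, 767 and 951 CPM in individuals 1 to 7. The seasons did not overlap, and summer 3 and 4 again held the highest levels. Its log2 fold change was 1.39 ± 0.28 (SE, edgeR adjusted p = 0.438) with 14 libraries and 0.87 ± 0.11 (SE, edgeR adjusted p = 0.0167) without summer 3 and 4. In the latter form it passed in 17 of 25 alternatives. It missed the threshold when winter 3, winter 6, summer 2, summer 5 or summer 6 was left out (edgeR adjusted p from 0.0577 to 0.0806), when winter 2, 6 and 7 were averaged (0.142), in a fit over all tissues (0.122) and with summer 7 counted as winter (0.648).

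OAV3G000016763 was the lower gene with the smallest p once summer 3 and 4 were left out. Its winter levels were 68.3 to 77.4 CPM with a median of 75.4, and its summer levels 38.2 to 62.4 CPM with a median of 56.6. Each summer library was below each winter library, and summer 3 was the lowest. The log2 fold change was -0.43 ± 0.13 (SE, edgeR adjusted p = 0.438) with 14 libraries and -0.37 ± 0.06 (SE, edgeR adjusted p = 0.0689) without summer 3 and 4, so it passed in neither. In the latter form it passed in 3 of 25 alternatives: DESeq2, voom with quality weights and the covariate fit described below.

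OAV3G000004802 was the lower gene with the smallest p in the 14 libraries, and it belonged to the gill-over-muscle genes. It measured 31.3 to 46.2 CPM in winter skin, with a median of 41.2, and 24.4 to 33.97 CPM in summer skin, with a median of 26.9. The seasons overlapped, since winter 3 and summer 6 crossed. The log2 fold change was -0.51 ± 0.14 (SE, edgeR adjusted p = 0.438) and, without summer 3 and 4, -0.53 ± 0.12 (SE, edgeR adjusted p = 0.1001). Without these libraries it passed in 3 of 25 alternatives, the same ones as for OAV3G000016763. In this gene summer 3 and 4 lay inside the range of the other summer libraries.

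**Figure D5:**
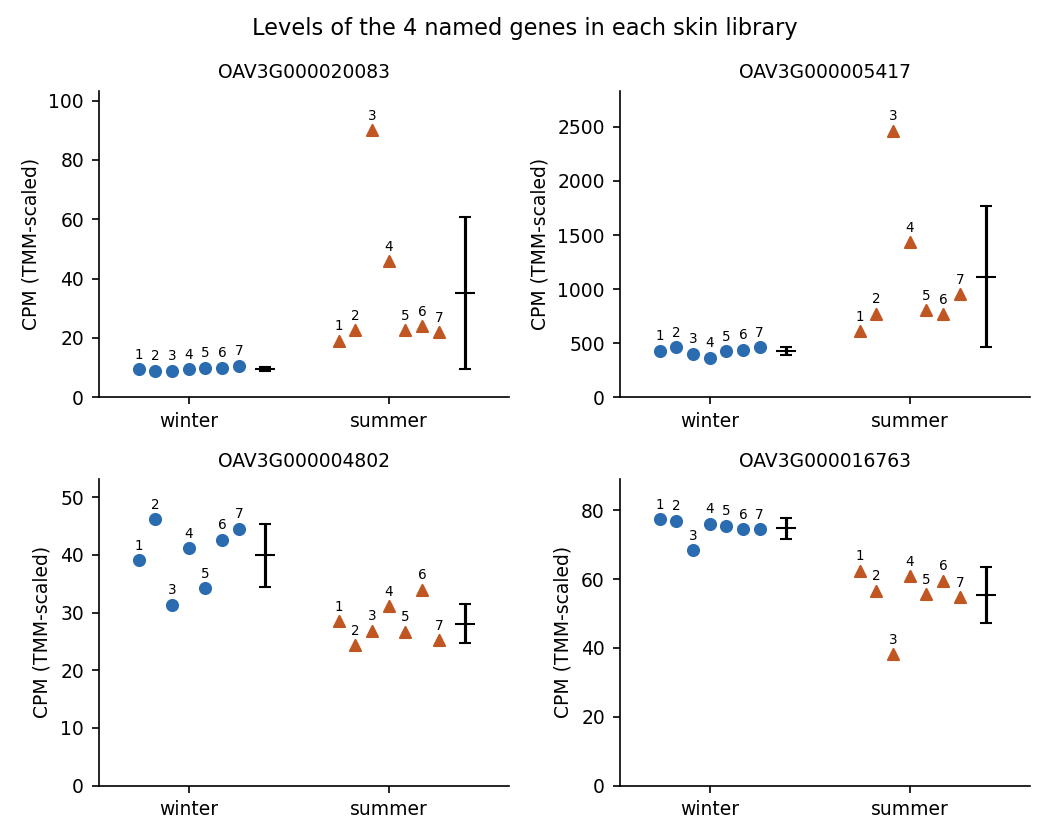
CPM (y, TMM-scaled) of the 4 genes in each of the 7 winter and 7 summer skin libraries, each point labelled with its individual, beside the mean and SD of the group. OAV3G000020083 lies at 8.85 to 10.7 CPM in winter and 19.1 to 89.9 in summer, and summer 3 holds the extreme level in 3 of the 4 panels.

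Since the shares of muscle-over-gill genes varied widely within each season, the 12 libraries were also fitted with the log2 of that share as a covariate, an alternative chosen after seeing the data. The share itself was associated with 7015 of 18486 genes (37.9%), 3503 with a positive and 3512 with a negative slope, by edgeR's test at the adjusted threshold. The share comes from the same counts, and its 2833 tested members are among these 18486 genes, so part of this count is built in. With it in the fit, 549 genes differed by season (2.97%), 340 higher (1.84%) and 209 lower (1.13%) in summer. Their differences were modest, with a median log2 fold change of 0.51 in the higher and -0.40 in the lower genes, and 225 and 189 of them were under 1.5-fold. Skin-enriched genes held 0 of these calls, gill-over-muscle genes 47 higher and 8 lower of 2442, and muscle-over-gill genes 40 higher and 51 lower of 2833. The covariate is made of the muscle-over-gill genes and takes up a change that they share. Their split into higher and lower is therefore not independent of the covariate.

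The count of 549 rested on single libraries. It was 1 without summer 2 or without summer 6, and 1428 without summer 1. It was 70 without winter 5, 71 without summer 5, 80 without summer 7, 93 without winter 6, 104 without winter 2 and 184 without winter 7. With winter 2, 6 and 7 averaged it was 1, and with summer 3 and 4 kept in or summer 7 counted as winter it was 0. OAV3G000020083 had a log2 fold change of 1.20 ± 0.08 (SE) in this fit, with an edgeR adjusted p of 4.45e-05. It passed with each of the 12 libraries left out in turn and in 19 of 21 alternatives in all. The call was lost with summer 7 counted as winter (edgeR adjusted p = 0.360) and with summer 3 and 4 kept in (0.480). OAV3G000005417 (0.89 ± 0.11), OAV3G000016763 (-0.38 ± 0.06) and OAV3G000004802 (-0.51 ± 0.12) also passed, at adjusted p-values of 0.0124, 0.0154 and 0.0443 in edgeR's test. Each lost the call without summer 2 or without summer 6, with summer 7 counted as winter and with summer 3 and 4 kept in. With winter 2, 6 and 7 averaged each lost it as well (edgeR adjusted p = 0.0628, 0.0771 and 0.112). OAV3G000004802 also lost it without winter 2, 4, 5, 6 or 7 and without summer 5 or 7.

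The scores on the third component of the 12 libraries, which held 11.5% of the variance, were lower in summer. They averaged -17.9 ± 11.4 in 5 summer and 12.8 ± 21.3 in 7 winter libraries (SD; two-sided exact permutation test, p = 0.0114, 0.0341 adjusted over 3 components). This component had r = -0.161, 0.055 and -0.165 with the muscle-over-gill, gill-over-muscle and skin-enriched shares (permutation p = 0.635, 0.872 and 0.622, each 0.920 adjusted over the 15 relations). Without the 2 libraries farthest from the median of each share these r were 0.193, 0.825 and -0.382. Within the 7 winter libraries r was 0.265 with the muscle-over-gill and -0.194 with the gill-over-muscle share, and within the 5 summer libraries -0.805 and 0.667. The pooled values therefore do not show that the component is unrelated to the shares. Winter 5 scored 55.1 and summer 5 scored -35.0, the extremes of the 12. The difference was -30.7 with all 12 libraries and -9.45 without summer 5 (exact permutation p = 0.518). The call was also lost without winter 3, summer 6 or summer 7 (exact permutation p from 0.0636 to 0.236) and on the 1000 most variable genes (exact permutation p = 0.501), with summer 7 counted as winter (0.0626) and with winter 2, 6 and 7 averaged (0.0556).

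The last comparison set skin beside the gills and muscle of the same fish, with levels scaled over all 42 libraries. The interaction tests treated the libraries of a fish as independent, so the pairing of tissues within fish was not used. The named genes were chosen by their seasonal p in these same skin libraries. That choice favours a large change in skin over the other tissues, so the interaction p-values are not independent of it. OAV3G000020083 measured 8.17 ± 0.509 CPM in winter skin and 30.1 ± 22.2 in summer skin, 13.3 ± 2.21 and 15.3 ± 3.17 in gills, and 24.1 ± 8.99 and 35.4 ± 10.8 in muscle (SD, n = 7 each). Within gills and within muscle the log2 fold change was 0.19 and 0.60, and neither passed (edgeR adjusted p = 0.529 and 0.144). The seasonal change in skin exceeded that in muscle by 1.33 ± 0.36 (SE) on the log2 scale (edgeR adjusted p = 0.0227), and by 0.79 ± 0.23 (adjusted p = 0.0307 in edgeR) without skin summer 3, skin summer 4 and muscle summer 4. Its excess over gills, 1.67 ± 0.35 (SE), did not pass (edgeR adjusted p = 0.510). Unadjusted, edgeR's p was smaller against gills (2.65e-05) than against muscle (0.000533). The adjustment depends on all genes of a comparison, where 0 passed against gills and 931 against muscle. The adjusted values therefore do not show that skin differed from muscle more than from gills. The winter level of this gene in skin was the lowest of the 3 tissues.

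For OAV3G000005417 skin measured 363 ± 27.9 CPM in winter and 955 ± 563 in summer, gills 432 ± 16.3 and 561 ± 187, and muscle 719 ± 315 and 920 ± 170 (SD, n = 7 each). Its seasonal change in skin exceeded that in gills by 1.02 and that in muscle by 1.04, and neither difference passed (edgeR adjusted p = 0.995 and 0.0736). Without the 3 libraries named above both differences were 0.51 and neither passed. OAV3G000016763 measured 63.6 ± 2.18 and 47.3 ± 6.80 CPM in winter and summer skin, 72.3 ± 4.84 and 63.8 ± 3.87 in gills, and 37.9 ± 8.997 and 28.9 ± 5.97 in muscle (SD, n = 7 each). OAV3G000004802 measured 33.9 ± 4.44 and 24.02 ± 2.95 CPM in skin, 15.3 ± 4.59 and 9.56 ± 3.23 in gills, and 1.12 ± 0.687 and 0.264 ± 0.474 in muscle (SD, n = 7 each). In both genes the summer mean was the lower one in each tissue. No interaction passed with all 42 libraries (edgeR adjusted p from 0.252 to 0.997) or without those 3 libraries (edgeR adjusted p from 0.266 to 0.9999).

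Over all genes, the seasonal change differed between skin and gills for 0 of 19258 genes (0%) by edgeR's test after adjustment, with 728 (3.78%) at an unadjusted p under 0.05. Without the 3 libraries that stood apart in skin and muscle it was again 0 of 19433, with 852 (4.38%) unadjusted. Between skin and muscle 931 genes differed (4.83%), 838 (4.35%) with a larger summer minus winter value in skin than in muscle and 93 (0.483%) with a smaller one. Without the 3 libraries there were 1588 (8.17%), with 1153 (5.93%) and 435 (2.24%).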

How the data were processed

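Unstranded poly-A libraries of skin, gills and muscle from 14 fish were read from both ends, 150 bp each, per the labels' protocols. What the authors deposited is a single table of raw counts (21024 genes, 42 libraries). HISAT2 2.2.1, SAMtools 1.10, Trim Galore 0.6.6, Cufflinks and FastQC are listed in the submitters' processing notes. Counting program, annotation and genome build: not given in the sources used here. Of skin counts from 1 to 10, 75.1% were even, as when both mates are counted, so sampling noise was taken as 2 times the count in variance. Genes that overlap others, lie antisense to them or have near copies are uncertain in unstranded counts.

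R 4.3.3 with edgeR 4.0.16 (robust quasi-likelihood test, TMM, filterByExpr, two-sided, Benjamini-Hochberg threshold 0.05), limma 3.58.1 and DESeq2 1.42.0 were used, after the scripts were tested on simulated data. Season was tested on the 14 skin libraries and without summer 3 and 4, and interactions in 1 fit of 42 libraries. Single values used exact permutation of libraries. P-values within a tissue measure the spread between libraries, 1 per fish. Fits across tissues hold more than 1 library per fish. They have no term for the fish and treat its libraries as independent. Counting intervals are not given, because reads are not independent molecules.

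Members and lists were chosen with earlier results of these data known. Named genes are, in each direction, the gene with the smallest p with 14 libraries and, if not yet named, with 12, if mean log2 CPM reached 1 and 6 of 7 (4 of 5) or more summer libraries lay past the median of winter. The listed pathway genes and cell type markers could not be matched to identifiers, and nothing is reported for them. Alternatives were RLE scaling, no low-count filter, DESeq2, voom with and without quality weights, no robust estimation, a replicate block, the treatment tag, averaging winter 2, 6 and 7, 1 fit of all libraries, counts divided by 2, and each library left out; those of the 12-library and covariate fits were added after seeing the data.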

Additional observations from a re-analysis of the deposited data

Results flagged for a closer look

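In OAV3G000020083, skin summer 3 held 89.9 CPM, far from the next summer library at 45.9 CPM: the gap took up more of the range of the 7 summer libraries than Dixon's limit for 7 values allows. In OAV3G000016763, skin summer 3 held 38.2 CPM, below the other 6 summer libraries, and skin winter 3 held 68.3 CPM, below the other 6 winter libraries. These are 3 of 26 groups examined in this way, and chance flags about 1 in 20 groups. Summer 3 also had the highest share of muscle-over-gill genes in skin, 55.5%; its part in these levels was not tested.

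In the interaction test the seasonal change of OAV3G000020083 was larger in skin than in muscle by 1.33 on the log2 scale (SE 0.36, edgeR adjusted p = 0.0227, n = 7 libraries a group). The gene was chosen by its seasonal p in these same skin libraries, and that choice favours a larger change in skin. It also favours what was seen there, all 7 summer skin libraries above all 7 winter skin libraries. The pairing of tissues within fish was not used. The excess over gills was 1.67 (SE 0.35) and did not pass (edgeR adjusted p = 0.510), although its unadjusted p was the smaller one.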

How the results depend on the processing

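With 14 libraries the count at an adjusted p under 0.05 was 0 in edgeR, with each library left out as well; it was 78 in DESeq2, 3546 in voom with quality weights, 289 in 1 fit over all libraries, 2 without summer 3 and 4, 2 without summer 3, 4 and 7, and 1 with winter 2, 6 and 7 averaged and summer 3 and 4 left out. The count at an unadjusted p under 0.05, 2064, became 1297 in voom, 6634 with quality weights, 3862 in the fit over all libraries and 1028 to 2817 with a library left out. Without summer 3 and 4 the 2 adjusted calls became 478 in DESeq2, 3672 with quality weights, 19 in the fit over all libraries, 10 with counts divided by 2, 549 with the share as covariate, 1 with winter 2, 6 and 7 averaged, 0 with season from the tag, and 1 to 21 with a library left out (21 without summer 1, 16 without winter 4, 10 without winter 5, and 1 without winter 3, winter 6, summer 2, 5 or 6). The 2006 unadjusted calls became 6847 with quality weights, 1256 in the fit over all libraries, 4012 with the covariate and 1334 to 2524 with a library left out. With the covariate, the 549 adjusted calls became 1857 in DESeq2, 1 with winter 2, 6 and 7 averaged, 0 with season from the tag, 0 with summer 3 and 4 kept in, and 1 to 1428 with a library left out; the 4012 unadjusted calls became 2186 with the tag, 1805 with summer 3 and 4, and 3056 to 4660 with a library left out.

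The individual number was also fitted as a replicate block. By the labels, fish with the same number in the other season are different fish caught in another year, so the libraries share only a number. Their deviations correlated at -0.269 to 0.346, 3 of 7 over 0.1, and 0 of 7 matched best with their own number. Such correlations cannot by themselves tell the same fish from different fish. With the block, 0 genes passed with 14 libraries (994 at an unadjusted p under 0.05, 626 higher and 368 lower) and 15 without summer 3 and 4 (3743 unadjusted).

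The gill-over-muscle share difference reversed to 0.206 percentage points with winter 2, 6 and 7 averaged (exact permutation p = 0.936) and ran from -1.85 to 0.142 with a library left out. The within-season distance difference reversed to -0.144 without summer 3 and 4, whose removal lowers the summer spread by construction; in those 12 libraries it was -0.122 with the tag and -0.170 to -0.111 with a library left out. The third component difference lost its call at -7.33 on the 1000 most variable genes, -26.0 with the tag, and -29.9 with winter 2, 6 and 7 averaged, and ran from -35.5 to -9.45 with a library left out. The skin minus muscle interaction of OAV3G000016763, -0.04, reversed to 0.013 without the 3 libraries that stood apart. The cause of the other changes was not tested. Over all alternatives, 257 of the values for single genes kept their direction and side of the threshold, 18 passed it newly, 33 lost it and 1 reversed. Some fits enter these counts under different names, and the alternatives share most libraries.

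Summer 4 has the smallest total and the most genes at 0, so its values are the least precise for genes of low count.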
